A study of Sus scrofa with 12 samples.

Results

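The 7 genes described here are RGS2, SRPX, MANBA, DYNC2LI1, DEPDC7, MOCS2 and FAM118A, which are 7 of the 29329 genes in a count table of porcine embryos. They were chosen by name as transcripts that were high in the control libraries titled 2c and lower in the control libraries titled 4c. Earlier results of the same counts, for control and knockdown libraries, were known when they were chosen. They are therefore a selected group and not the complete set of transcripts with that pattern. All 7 were among the 17995 genes that passed the filter on low counts. A working description of the group as abundant transcripts fitted RGS2, SRPX, MANBA, DYNC2LI1 and DEPDC7, whose con-2c means ranked between 13 and 387 among the genes tested. MOCS2, at rank 1966, and FAM118A, at rank 5536, were not abundant in this sense. These ranks are by CPM, counts scaled to the size of the library, which do not allow for transcript length.

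The 12 libraries were SMART-seq libraries of Sus scrofa embryos made by in vitro fertilisation, with 3 libraries of control embryos (con-2c and con-4c) and 3 of knockdown embryos (si-2c and si-4c) under each title stage, and each library came from a pool of embryos. The si embryos received Si-CCNB2, which targets the transcript of cyclin B2 (CCNB2) by RNA interference, by microinjection after fertilisation, and the con embryos are labelled blank control. Elsewhere the methods refer to a negative control group for Si-CCNB2 and describe negative controls prepared for microinjection. Since the labels read otherwise, it is unclear whether con embryos were injected. A difference between si and con libraries therefore cannot be told apart from the injection itself. The title and the tissue field of every library give opposite stages, 4 cells in the tissue field for the title 2c and 2 cells for the title 4c. Group names follow the titles, and reading the tissue field instead would turn each comparison between stages around. By the methods the oocytes came from postpubertal Long White gilts, and the boars were Landrace, aged 2 to 3 years. The libraries of a group were, by the same methods, different sets of embryos. The methods speak of independent experiments in general, but neither they nor the labels say of these libraries whether the sets came from separate collections, fertilisations or cultures, so p-values measure the spread between the sets.

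An egg stores mRNA while it grows and uses this store for its first divisions. During the maternal-to-zygotic transition the stored mRNA is shortened at its poly(A) tail and degraded, while the genome of the embryo begins to be transcribed. The genes of the present group have no common pathway. RGS2 is a regulator of G protein signalling that switches off Gq and in mouse eggs restrains calcium release before fertilisation. SRPX is a sushi-repeat protein, MANBA is the lysosomal beta-mannosidase, and DYNC2LI1 is a light intermediate chain of cytoplasmic dynein-2, the motor that returns cargo from the tips of cilia. MOCS2 encodes both subunits of molybdopterin synthase, an enzyme of molybdenum cofactor synthesis. DEPDC7 carries a DEP domain, FAM118A has a fold like that of the SIR2 family, and both are little characterised.

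Since the si groups are defined by the loss of CCNB2, the designed sequences are shown here. The study lists a pair of short interfering RNAs of 19 bases each, and does not state which was used for these libraries or which strand is given. They are printed in the order listed, which carries no 5′ or 3′ mark, in lower case throughout.
Si-CCNB2-2: gcuuauaccaguucccaaa
Si-CCNB2-1: gcagguccacuccaaguuu

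CCNB2 itself had means of 464 ± 21.7 and 475 ± 41.9 CPM (SD, n = 3) in the con-2c and con-4c libraries. In the si-2c and si-4c libraries it had 22.7 ± 5.58 and 42.6 ± 3.65 CPM. The si libraries were all below the con libraries, which checks the label of the treatment but not that of the stage.

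Library totals lay between 27785233 and 39510908 counts, with the lowest in con-4c. The 7 genes took 1.03% to 1.11% of all counts in the con-2c libraries and 0.974% to 1.04% in si-4c, but 0.295% to 0.312% in con-4c and 0.382% to 0.409% in si-2c. These shares need no scaling factor. The lowest count of any of the 7 genes was 113, for FAM118A in con-4c, and the lowest count of the other 6 was 612, for MOCS2. Listed oocyte markers (8 of 10 in the table) summed to 3952 to 4414 CPM in con-2c, 3691 to 3815 in si-4c, 2499 to 2564 in con-4c and 2753 to 2945 in si-2c. Between con-2c and con-4c, OOEP (means of 1338 and 371 CPM) and ZP4 (1124 and 528) accounted for most of that fall, while BMP15 had 887 and 985. Listed cumulus and granulosa markers (11 of 14 in the table) summed to 291 to 370, 293 to 301, 176 to 188 and 170 to 197 CPM in the same order, nearly all of it VCAN (334 CPM on average in con-2c and 177 in con-4c). Of these 11, 7 stayed below 1 CPM in every library and none was at 0 in all libraries. The cumulus sum moved with the 7 genes, and its part in their levels was not tested. Sperm markers (3 of 9 in the table) reached 1.16 CPM at most, and fibroblast and blood markers (5 of 5) summed to 1.81 to 2.64 CPM in con-2c, 1.504 to 1.80 in si-4c, 5.70 to 6.68 in con-4c and 3.19 to 5.20 in si-2c. This sum moved opposite to the 7 genes, and its part in their levels was not tested. In a pool of embryos, fewer cells and less RNA per cell cannot be told apart.

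RGS2 (ENSSSCG00000037241, Sscrofa11.1 chromosome 10, 936836 to 940083) had the smallest coefficient of variation of the 7 genes in con-4c, si-2c and in si-4c. Its TMM-scaled level was 717, 673 and 614 CPM in con-2c replicates 1, 2 and 3. It was 194, 195 and 193 CPM in con-4c, 243, 248 and 260 CPM in si-2c and 688, 669 and 684 CPM in si-4c. The levels of con-2c and si-4c overlapped, whereas si-2c lay wholly above con-4c and far below con-2c. The level left was 29.0% ± 1.29 (SE) of con-2c in con-4c and 37.5% ± 1.81 in si-2c, which is a log2 fold change of -1.79 (SE 0.07) and -1.42 (SE 0.07). In si-4c it was 102% ± 4.61.

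SRPX (ENSSSCG00000012234, chromosome X, 34075577 to 34198462) had 8148, 8534 and 7106 CPM in con-2c and 7712, 7022 and 6709 CPM in si-4c. It had 1592, 1805 and 1730 CPM in con-4c and 2146, 2462 and 1825 CPM in si-2c. All si-2c libraries were again above all con-4c libraries, although si-2c replicate 3 exceeded con-4c replicate 2 by little. The level left was 21.6% ± 1.40 of con-2c in con-4c and 27.04% ± 2.74 in si-2c (log2 fold change -2.21, SE 0.11, and -1.89, SE 0.11). SRPX alone made up most of the counts of the 7 genes, with 231112 to 287204 counts in each con-2c library.

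MANBA (ENSSSCG00000009166, chromosome 8, 118251122 to 118361903) had 843, 859 and 734 CPM in con-2c, with 777, 725 and 697 CPM in si-4c. Its levels were 264, 276 and 280 CPM for con-4c and 332, 330 and 367 CPM for si-2c. As for RGS2 and SRPX, si-2c did not overlap con-4c and was the higher of the pair. The level left was 33.7% ± 1.74 of con-2c in con-4c and 42.3% ± 2.54 in si-2c (log2 fold change -1.57, SE 0.08, and -1.24, SE 0.08).

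DYNC2LI1 (ENSSSCG00000038383, chromosome 3, 96656099 to 96703282) had 2389, 2365 and 1827 CPM in con-2c and 2222, 2075 and 1997 CPM in si-4c. It had 440, 486 and 473 CPM in con-4c and 371, 402 and 500 CPM in si-2c. Here the con-4c and si-2c libraries overlapped, with si-2c replicate 3 the highest and si-2c replicates 1 and 2 the lowest of the 6. The level left was 21.3% ± 1.88 of con-2c in con-4c and 19.3% ± 2.40 in si-2c (log2 fold change -2.23, SE 0.12, and -2.37, SE 0.12), so its loss had a larger point estimate in si-2c than in con-4c, unlike that of the other 6 genes.

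DEPDC7 (ENSSSCG00000042341, chromosome 2, 27909282 to 27928859) had 439, 441 and 382 CPM in con-2c. The con-4c libraries had 178, 165 and 173 CPM and the si-2c libraries 169, 168 and 185 CPM. In si-4c it had 464, 486 and 467 CPM, all above con-2c. Its con-4c and si-2c libraries overlapped, and the level left was 40.9% ± 2.09 and 41.3% ± 2.30 of con-2c (log2 fold change -1.29, SE 0.08, and -1.28, SE 0.08).

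MOCS2 (ENSSSCG00000016888, chromosome 16, 32427783 to 32462362) had 76.4, 88.5 and 72.7 CPM in con-2c and 90.6, 82.8 and 80.1 CPM in si-4c. It had 20.1, 22.01 and 22.1 CPM in con-4c and 24.8, 27.8 and 27.2 CPM in si-2c. The si-2c libraries all lay above the con-4c libraries. The level left was 27.03% ± 1.82 in con-4c and 33.6% ± 2.33 in si-2c (log2 fold change -1.89, SE 0.10, and -1.57, SE 0.10).

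FAM118A (ENSSSCG00000000014, chromosome 5, 4065393 to 4102584) had 12.9, 12 and 11.13 CPM in con-2c and 8.88, 12.2 and 10.9 CPM in si-4c. The con-4c libraries had 7.44, 3.75 and 4.39 CPM, and those of si-2c 8.28, 7.18 and 5.04 CPM. It had the smallest coefficient of variation of the 7 in con-2c, 7.20%, but the largest in con-4c (38.0%) and si-2c (24.1%), where the other 6 genes had 0.527% to 6.32% in con-4c and 3.32% to 15.9% in si-2c. The con-4c and si-2c libraries overlapped, con-4c replicate 1 being above si-2c replicates 2 and 3. The level left was 43.3% ± 9.66 in con-4c and 57.0% ± 8.28 in si-2c (log2 fold change -1.21, SE 0.24, and -0.81, SE 0.23). Without con-4c replicate 1 the log2 fold change in con-4c was -1.57.

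**Figure D1:**
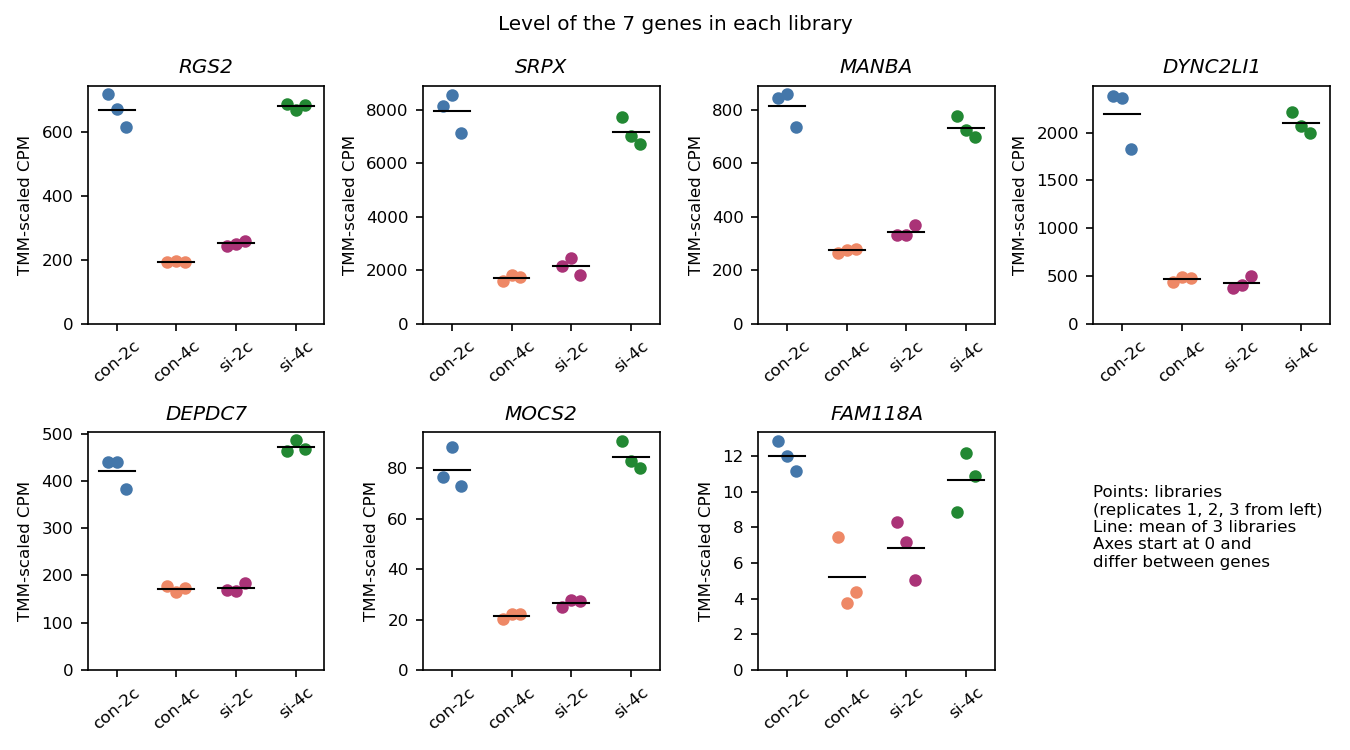
TMM-scaled CPM of the 7 genes in each library on linear axes that start at 0 and differ between genes; points are libraries and lines are means of 3. In every panel the con-2c and si-4c libraries are high and the con-4c and si-2c libraries low. The gap is narrowest for FAM118A, between 8.88 CPM in si-4c replicate 1 and 8.28 in si-2c replicate 1. Its means are 12 ± 0.864 CPM in con-2c and 5.19 ± 1.97 in con-4c.

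The differences of con-4c and si-2c from con-2c, and of si-4c from con-4c and si-2c, are the values on which these genes were selected. They are given as a description and carry no test. All 7 genes lay below con-2c without overlap in con-4c, where 20.0% of all tested genes did so, and in si-2c, where 16.5% did. In si-4c all 7 lay above con-4c without overlap (21.2% of all genes) and above si-2c without overlap (17.0%). Under library totals 6 of 7 did in each, FAM118A overlapping in both. These shares are background only, because the choice of genes fixed the members' count. The median log2 fold change of the 7 was -1.79 in con-4c and -1.42 in si-2c, where the median of all tested genes was 0.11 and 0.12. Among the 5914 genes with at least 10 CPM in con-2c the medians were -0.15 and -0.13, and 1 gene had a more negative value than DYNC2LI1 in each comparison. For DEPDC7 115 genes were more negative in con-4c and for FAM118A 162.

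The choice of genes was not exhaustive. OOEP, HPF1 and MRPL33, which are not of the 7, had log2 fold changes of -1.85, -1.42 and -1.45 in con-4c against con-2c, within the range of the 7. At the other end FAM118A was close to the fold threshold of the study, a log2 fold change of 1, at -1.21 for con-4c against con-2c, with 1.04 for si-4c against con-4c. In si-2c against con-2c (-0.81) and in si-4c against si-2c (0.64) it was below that threshold.

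The scaling of the libraries moves with the groups. With library totals in place of TMM factors, the median of all genes moved from 0.11 to 0.38 in con-4c against con-2c and from 0.12 to 0.52 in si-2c against con-2c, and the losses of the 7 genes were smaller by a like amount. RGS2 then kept 35.1% of its con-2c level in con-4c and 49.5% in si-2c, while FAM118A kept 52.6% and 74.9%. Taken against the median over all genes, the change of RGS2 in con-4c was -1.90 with TMM and -1.89 with library totals. All 7 genes stayed lower under either scaling.

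**Figure D2:**
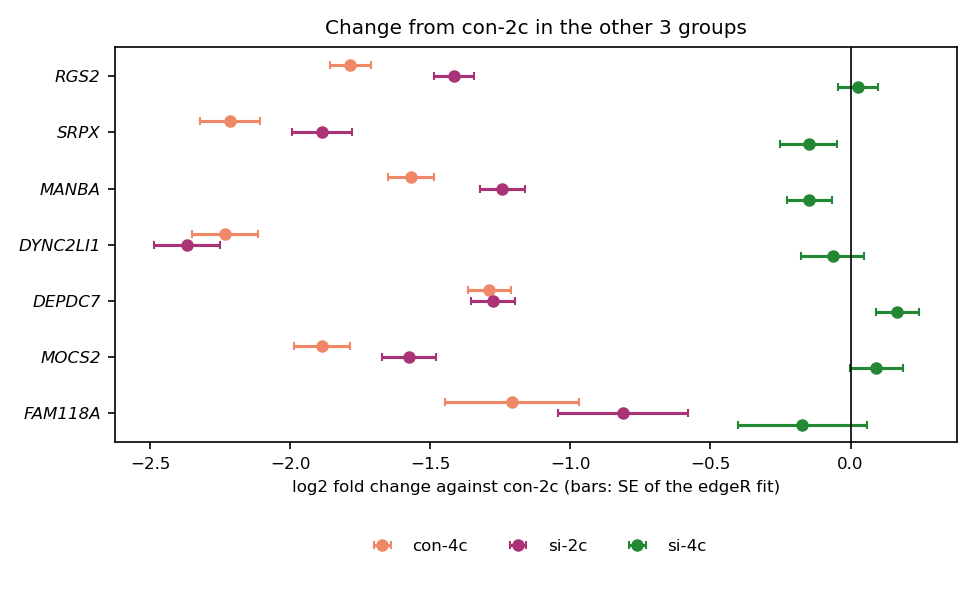
Log2 fold change of each gene against con-2c for the other 3 groups, with bars for the SE of the edgeR fit. DYNC2LI1 has the lowest points, -2.23 in con-4c and -2.37 in si-2c, while the si-4c points lie between -0.17 and 0.17.

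To compare the extent of loss gene by gene, si-2c was tested against con-4c, in which con-2c cancels. These libraries also took part in the comparisons that chose the genes. Genes picked for low con-4c levels tend to come out higher in si-2c against con-4c, so the p-values are not independent of the choice. RGS2 was higher in si-2c by a log2 fold change of 0.37 (SE 0.07, edgeR adjusted p = 0.00339), or 129% of its con-4c level (95% interval 116% to 144%). MANBA was higher by 0.33 (SE 0.08, edgeR adjusted p = 0.0173), or 125% of con-4c (112% to 141%). For both, the estimated loss in si-2c was smaller than in con-4c, in the direction that the choice of genes favours. On the log2 scale it came to 79.3% of the con-4c loss for RGS2 and 79.2% for MANBA. The result for RGS2 held when each library was left out in turn and under the other settings tried, with adjusted p up to 0.0234. The result for MANBA was lost without con-4c replicate 1, 2 or 3, where edgeR adjusted p was 0.0855, 0.0605 and 0.0533. Its log2 fold change ranged from 0.28 to 0.36 with a library left out.

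SRPX and MOCS2 had differences of similar size that did not pass the adjusted threshold. SRPX had a log2 fold change of 0.33 (SE 0.10, 95% interval 0.11 to 0.54, edgeR adjusted p = 0.0648) and MOCS2 one of 0.31 (SE 0.10, interval 0.11 to 0.52, adjusted p = 0.0633). SRPX passed without con-2c replicate 3 (adjusted p = 0.0264) or si-2c replicate 3 (0.00730), and MOCS2 without con-2c replicate 2 (0.0485) or replicate 3 (0.0367). FAM118A had the highest estimate with the widest interval, 0.39 (SE 0.24, interval -0.11 to 0.90, edgeR adjusted p = 0.427). With a library left out this estimate ranged from 0.21 to 0.75. DEPDC7 differed by 0.01 (SE 0.08, interval -0.15 to 0.18, edgeR adjusted p = 0.968), so that its level in si-2c was between 90.2% and 113% of that in con-4c. DYNC2LI1 had a difference of -0.14 (SE 0.11, interval -0.38 to 0.10, edgeR adjusted p = 0.619). Whether the difference of RGS2 is larger than that of DEPDC7 or DYNC2LI1 was not tested.

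In this comparison none of the 7 genes met the study's rule for a call (adjusted p under 0.05 and a fold change, up or down, of 1 or more in log2), neither by edgeR nor by DESeq2, and 1.79% of all tested genes did by edgeR. With the adjusted p alone, 2 of 7 passed where 7.54% of all genes did, and 4 of 7 had an unadjusted p below 0.05, where 19.3% of all genes did. The same 4 genes, RGS2, SRPX, MANBA and MOCS2, had groups that did not overlap, against 27.1% of all tested genes. The median of the 7 was 0.33 and that of all tested genes -0.02. With library totals the median of all genes rose to 0.11 and RGS2 stood at 0.50, that is 0.39 above the median under either scaling. SRPX and MOCS2 passed the adjusted threshold as well under library totals, with DESeq2 and with a filter of at least 10 CPM.

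To ask whether si-4c returned to the level of con-2c, these groups were compared directly. DEPDC7 was 0.17 higher in si-4c on the log2 scale (SE 0.08, 95% interval 0.01 to 0.33, edgeR adjusted p = 0.422), the only 1 of 7 with an unadjusted p below 0.05 (11.3% of all tested genes) and the only 1 whose libraries did not overlap, where 14.1% of all tested genes did not. Under library totals SRPX and MANBA did not overlap either. The intervals were -0.12 to 0.18 for RGS2, -0.37 to 0.07 for SRPX, -0.32 to 0.02 for MANBA, -0.30 to 0.17 for DYNC2LI1, -0.11 to 0.29 for MOCS2 and -0.66 to 0.32 for FAM118A. A level of SRPX in si-4c between 77.5% and 105% of con-2c thus lay within its interval, and for FAM118A one between 63.3% and 124%. None of the 7 passed the adjusted p, with 0.672% of all genes doing so by edgeR, and none met the rule with the fold threshold, which 0.333% of all genes met. DESeq2 also called none of the 7.

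**Figure D3:**
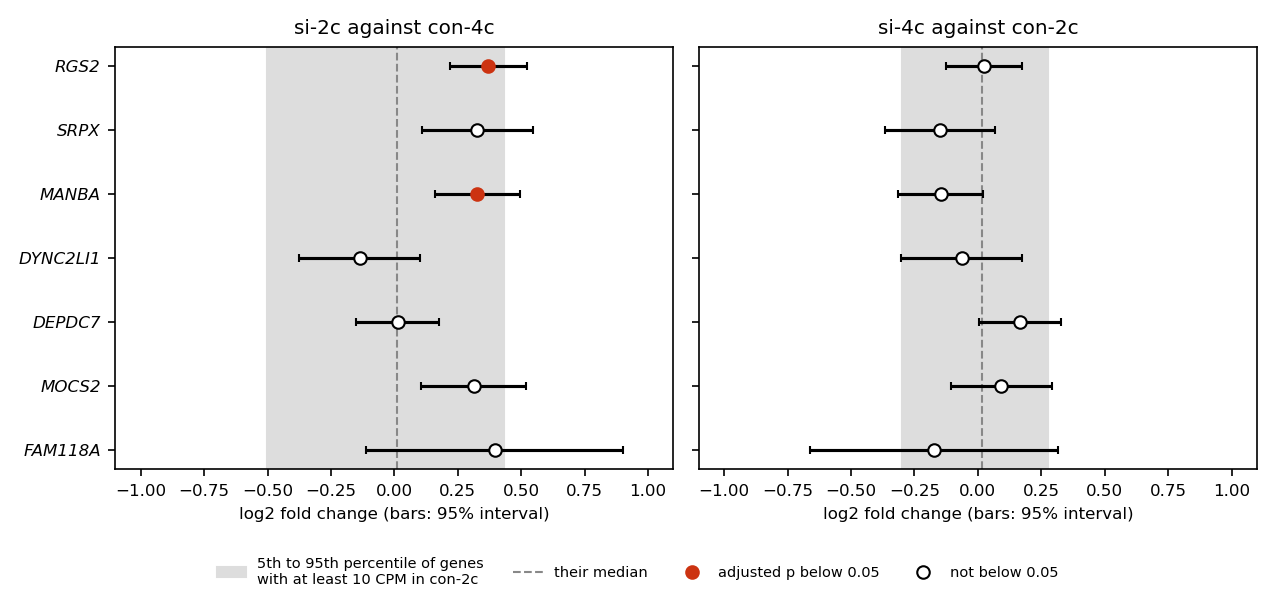
Log2 fold change with 95% intervals for si-2c against con-4c (left) and si-4c against con-2c (right); filled points have an adjusted p below 0.05, and the grey band spans the 5th to 95th percentile of the 5914 genes with at least 10 CPM in con-2c. On the left RGS2 (0.37) and MANBA (0.33) are filled and all 7 points lie inside the band from -0.50 to 0.43, and on the right no point is filled.

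The 7 genes were also set against each other within a library, a measure that needs no scaling factor. Each gene's log2 count was taken relative to the mean of the other 6 and then to its con-2c mean. DYNC2LI1 fell furthest on this measure, to -0.56 ± 0.14 (SD, n = 3) in con-4c and -0.999 ± 0.27 in si-2c. Its si-2c libraries ranged from -1.20 to -0.69 and its con-4c libraries from -0.71 to -0.44, so that the groups overlapped slightly.

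SRPX stood at -0.54 ± 0.16 in con-4c and -0.44 ± 0.23 in si-2c. FAM118A had the highest means, 0.56 ± 0.56 in con-4c and 0.79 ± 0.42 in si-2c, with wide spread and overlap between these groups. Its con-4c mean leaned on replicate 1, at 1.18, with 0.12 and 0.36 in replicates 2 and 3. DEPDC7 was at 0.54 ± 0.02 in con-4c and 0.28 ± 0.11 in si-2c, without overlap. On this measure a shift can come from the other genes, and by edgeR DEPDC7 differed by a log2 fold change of 0.01 between these groups. The scatter of FAM118A also enters the mean used for each other gene. MANBA was at 0.21 ± 0.10 and 0.32 ± 0.12. RGS2 and MOCS2 remained near the mean of the others, at -0.04 ± 0.05 and -0.16 ± 0.13 in con-4c and 0.12 ± 0.07 and -0.07 ± 0.09 in si-2c. The si-2c libraries of RGS2 (0.073 to 0.196) lay above those of con-4c (-0.093 to 0.0086), while those of MOCS2 overlapped. In si-4c all 7 means lay between -0.17 and 0.24, the latter for DEPDC7.

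**Figure D4:**
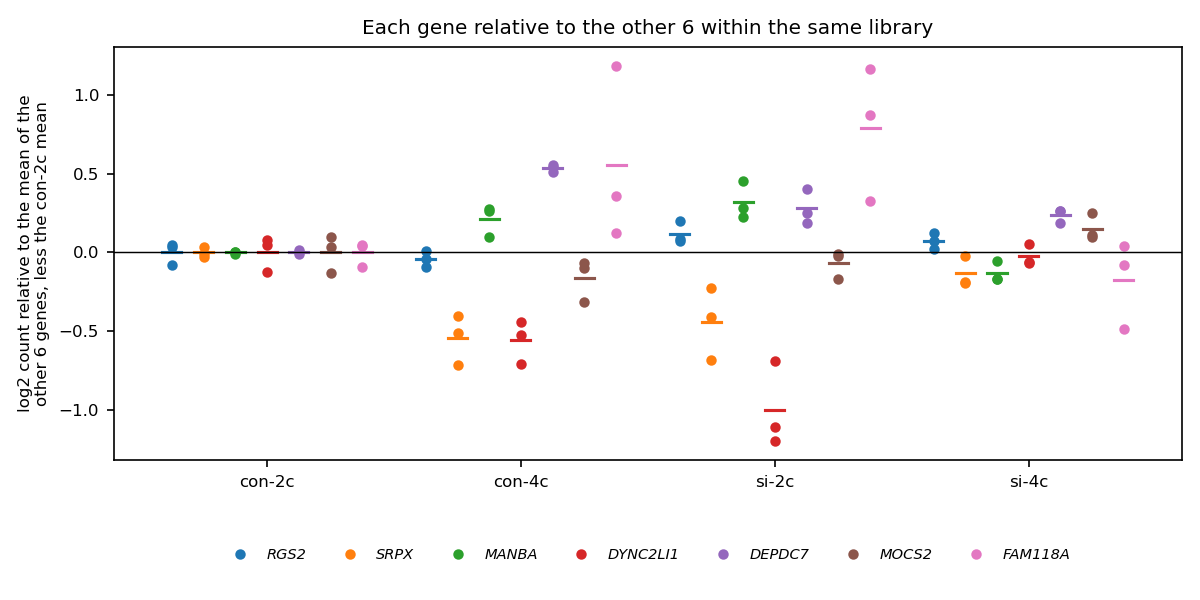
Log2 count of each gene relative to the mean of the other 6 in the same library, less its con-2c mean; points are libraries and short lines are means of 3. DYNC2LI1 lies at -0.56 in con-4c and -0.999 in si-2c, DEPDC7 at 0.54 and 0.28, and the FAM118A libraries scatter most outside con-2c.

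Over the 12 libraries the log2 CPM values of the 21 pairs of genes had a Pearson's r between 0.784 and 0.995 (median 0.976), which mainly describes the difference between the groups. After the group means were subtracted, r ranged from -0.502 to 0.934 with a median of 0.296. The highest of these was for MANBA and DYNC2LI1. Within si-2c, replicate 3 had the highest level of RGS2, MANBA, DYNC2LI1 and DEPDC7 and the lowest level of SRPX and FAM118A.

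The genes outside the group whose log2 CPM followed the mean of the 7 most closely over the 12 libraries, out of 5201 named genes with at least 10 CPM in con-2c, were PPA1 (r = 0.993), DSCC1 (0.992), CBR4 (0.992), CEP290 (0.992) and TYMS (0.991). PPA1 is a pyrophosphatase, DSCC1 a subunit of a clamp loader for sister chromatid cohesion, CBR4 a mitochondrial reductase, CEP290 a protein of the ciliary transition zone and TYMS thymidylate synthase. PPA1 had means of 65.2 and 70.5 CPM in con-2c and si-4c, and of 18.3 and 21.1 CPM in con-4c and si-2c. Of the 7 genes themselves, r with their own mean was lowest for FAM118A (0.863) and highest for RGS2 (0.997). By Spearman's rho the order differed, PPA1 having a rho of 0.916 and rank 78. These values are descriptions over libraries that share groups.

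Genes related in function to each of the 7 were then described, from lists made by function. In con-4c against con-2c, 3.25% of all tested genes were called lower and 14.4% higher, and with the adjusted p alone 15.1% were lower and 20.7% higher. Of 21 tested RGS proteins, Gq-side subunits and their effectors, none was called lower (median 0.25) and 4 were called higher. ITPR2, a calcium release channel, rose from 4.39 ± 0.0676 to 10.6 ± 2.93 CPM (SD, n = 3; log2 fold change 1.27, SE 0.23, edgeR adjusted p = 0.000274). GNA11, a Gq family subunit, rose from 0.835 to 2.35 CPM (1.49, SE 0.46, edgeR adjusted p = 0.0185). RGS14 and PLCB4 were at or close to 0 in con-2c and had 2.15 and 0.470 CPM in con-4c. With the adjusted p alone 1 of the 21 was lower and 5 were higher. The 1 lower gene was RGS16, named after its values were seen, which went from 25.03 ± 2.05 to 17.5 ± 3.61 CPM (log2 fold change of -0.51, SE 0.15, edgeR adjusted p = 0.0127) and had 24.3 CPM in si-2c. It did not pass the adjusted p under library totals, where none of the 21 was lower. SRPX2, the relative of SRPX, was in the table but did not pass the filter.

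Among the relatives of MANBA, the lysosomal glycan-degrading genes, examples are CTBS, a chitobiase, FUCA1, a fucosidase, and GLA, an alpha-galactosidase. The log2 fold changes of CTBS and FUCA1 were -0.08 (SE 0.14) and 0.01 (SE 0.09), with edgeR adjusted p of 0.723 and 0.936, and under library totals 0.21 and 0.29, with adjusted p of 0.258 and 0.0311. GLA went from 43.0 ± 2.38 to 75.1 ± 3.60 CPM, a log2 fold change of 0.80 (SE 0.08, edgeR adjusted p = 8.92e-07), and passed the fold threshold under library totals (1.07). Of 32 dynein-2 and intraflagellar transport genes besides DYNC2LI1, 1 was called lower and 1 higher (median -0.03). IFT46, a subunit of the anterograde train, fell from 26.7 ± 3.84 to 12.6 ± 2.48 CPM, a log2 fold change of -1.09 (SE 0.15, edgeR adjusted p = 2.21e-05), and HSPB11 rose from 0.797 to 3.34 CPM. With the adjusted p alone 10 of the 32 were lower and 4 higher, and under library totals 6 were lower and 7 higher. Beside IFT46, the genes lower on this measure, named after their values were seen, included DYNLT1 (-0.48), IFT20 (-0.61), IFT74 (-0.64), IFT43 (-0.74) and CLUAP1 (-0.75), of which DYNLT1 did not pass under library totals (-0.20, adjusted p = 0.0532). Under library totals IFT46 (-0.81) was below the fold threshold. It had 12.3 CPM in si-2c, near its con-4c level, and 24.8 CPM in si-4c, near its con-2c level.

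None of 5 tested DEPDC genes and CARMA partners was called (median 0.19). DEPDC1B, the most abundant of these by CPM, had a log2 fold change of -0.63 (SE 0.10, edgeR adjusted p = 0.000153), short of the fold threshold, and of -0.36 under library totals. DEPDC1 (0.24) and DEPDC5 (0.19) had adjusted p of 0.152 and 0.234. With the adjusted p alone 1 of the 5 was lower and none higher, and under library totals 1 was lower and 3 higher, DEPDC1 (0.51) and DEPDC5 (0.46) among the latter. Of 9 genes of molybdenum cofactor synthesis and molybdoenzymes 1 was called higher and none lower (median 0.12). It was AOX1, an aldehyde oxidase, with no count in con-2c and a level of 1.27 ± 0.295 CPM in con-4c. Under library totals GPHN, which inserts molybdenum into the cofactor, was called higher as well (1.01). None of 8 SIR2-fold genes was called by edgeR with TMM factors (median -0.03), and under library totals SIRT7 was called higher (1.55). With the adjusted p alone 2 of the 8 were lower and 1 higher, and under library totals 2 were lower and 2 higher. FAM118B, the paralogue of FAM118A, nevertheless went from 63.5 ± 5.58 to 39.2 ± 1.17 CPM, a log2 fold change of -0.70 (SE 0.09, edgeR adjusted p = 6.28e-06), with means of 40.3 and 66.5 CPM in si-2c and si-4c. SIRT4 had -0.83 (SE 0.13, edgeR adjusted p = 7.78e-05) and SIRT1 0.40 (SE 0.12, adjusted p = 0.0135). Under library totals FAM118B, SIRT4 and SIRT1 had -0.42, -0.56 and 0.68. No gene named from these lists was called in si-2c against con-4c or in si-4c against con-2c, where 1.79% and 0.333% of all tested genes were. With the adjusted p alone, SIRT1 (-0.46, edgeR adjusted p = 0.0235) and IFT43 (-0.33, edgeR adjusted p = 0.0431) were lower in si-2c against con-4c, where 7.54% of all genes passed. In si-4c against con-2c DYNLT1 was lower (-0.48, edgeR adjusted p = 0.0469), where 0.672% of all genes passed.

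**Figure D5:**
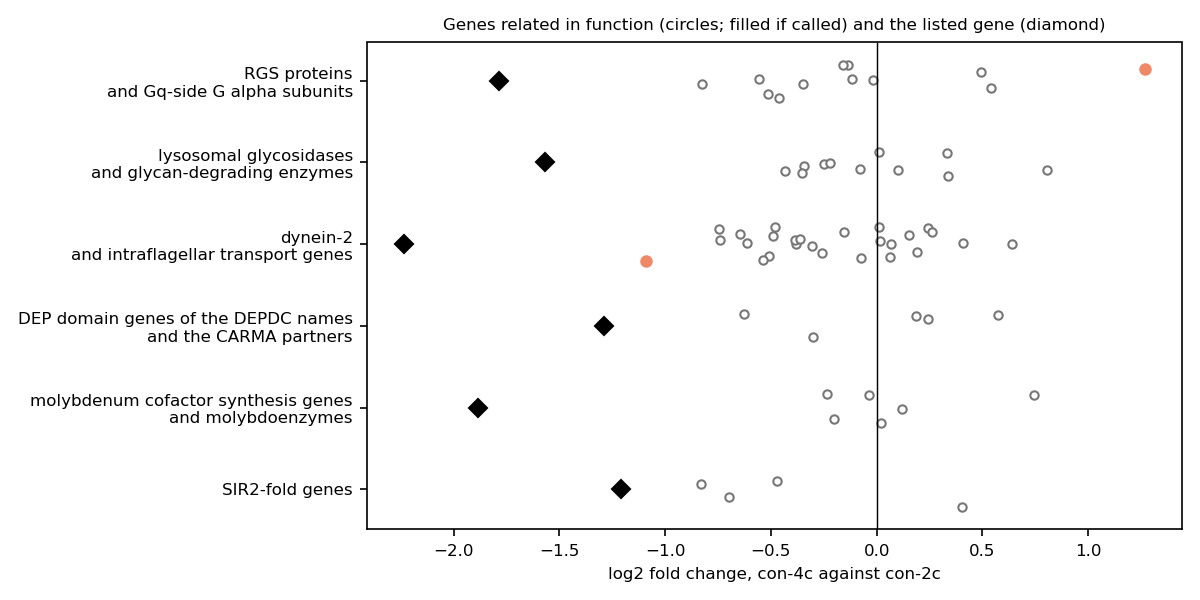
Log2 fold change in con-4c against con-2c of the functionally related genes with at least 1 CPM in con-2c (circles, filled where called) and of the gene each list was made for (diamonds). Each diamond, from -2.23 for DYNC2LI1 to -1.21 for FAM118A, lies to the left of every plotted relative in its row, which follows in part from how the 7 genes were chosen. Genes of the lysosomal list that are not reported here are not plotted.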

How the data were processed

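The authors deposited 1 table of unnormalized whole-number counts for each Ensembl gene and library. The submitters' processing notes name cutadapt 1.9, HISAT2 2.2.1, StringTie 2.1.6, DESeq2, edgeR and the build Sscrofa11.1, without roles. The annotation version, strandedness and handling of multiply mapped reads are not given in the sources used here, so values of overlapping genes or close copies are uncertain. The cDNA was primed with oligo(dT), so the counts describe polyadenylated RNA, and no molecular identifiers or spike-in were used to set an absolute scale here. Coordinates are from the RefSeq gene table of Sscrofa11.1, matched by symbol for 7 of 7 genes.

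Counts were fitted in R 4.3.3 with edgeR 4.0.16 (filterByExpr, TMM factors 0.852 to 1.21, 1 quasi-likelihood model with 4 group means over 12 libraries), with Benjamini-Hochberg adjustment over 17995 genes. Calls needed an adjusted p under 0.05 and a log2 fold change of 1 or more in either direction, as in the study. CPM were computed here with the cpm function of edgeR from TMM-scaled totals, and log2 CPM used a prior count of 2. No replicates agreed within sampling noise (chi-square divided by its degrees of freedom was 7.55 to 46.0), so each library counted once. DESeq2 1.42.0, other scalings and filters, a fit of 2 groups, a replicate block and each library left out were alternatives. The 7 genes and all gene lists were chosen with earlier results of these data known, and 2 genes of the lysosomal list are not reported here, so no counts over that list are given. Named genes were the 7, CCNB2, list genes called in con-4c against con-2c (or the 3 with the highest con-2c mean), the 5 closest by r, and leading genes by p in con-4c against con-2c. GPHN, SIRT7 and, among the markers, OOEP, ZP4, BMP15 and VCAN were named after their values were seen. The text marks the other genes named in this way.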

Additional observations from a re-analysis of the deposited data

Results flagged for a closer look

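In each of the 7 genes the difference between the title stages had opposite signs in con and si libraries, every con-4c library lying below every con-2c library and every si-4c library above every si-2c library in TMM-scaled CPM. Under library totals this held for 6 of the 7, and FAM118A in si-4c replicate 1 (7.73 CPM) was below si-2c replicates 1 (9.76) and 2 (8.06). The stage difference in si less that in con was, on the log2 scale, 3.23 for RGS2, 3.95 for SRPX, 2.67 for MANBA, 4.54 for DYNC2LI1, 2.73 for DEPDC7, 3.56 for MOCS2 and 1.85 for FAM118A. The difference was not tested, because it combines comparisons that chose the genes.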

How the results depend on the processing

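The number of the 7 genes with an adjusted p below 0.05 in si-2c against con-4c was 2 (RGS2 and MANBA), and it was 4 under library totals, with DESeq2 and with a filter of at least 10 CPM, under which FAM118A was not tested. With each library left out it ranged from 1 to 4, the lowest without any con-4c library and the highest without con-2c replicate 3. None was called in any setting, and in si-4c against con-2c the number was 0 throughout. Over 19 settings RGS2 passed in 19, MANBA in 16, SRPX in 7 and MOCS2 in 5. Same-numbered libraries showed no shared deviation (18 correlations from -0.050 to 0.029), which cannot tell whether they had a common origin. With a replicate block the number in si-2c against con-4c was again 2 (edgeR adjusted p 0.00957 for RGS2 and 0.0363 for MANBA), with 286 genes called in place of 322.

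Signs near 0 turned for DEPDC7 in si-2c against con-4c, to -0.0051 with DESeq2's size factors and -0.0050 with its test (-0.032 to 0.045 with a library left out). In si-4c against con-2c they turned for DYNC2LI1 (-0.20 to 0.0010) and RGS2 (-0.056 to 0.079) with a library left out. In si-2c against con-4c 9.01% of the 322 calls were higher, against 21.9% under library totals, and 134 genes were called with the 10 CPM filter. The other comparison gave 60 calls over all genes by edgeR (6 higher and 54 lower), 191 by DESeq2 (48 higher and 143 lower), 131 without a filter, 23 in a fit of these groups alone and 35 without si-4c replicate 2. The causes were not tested. FAM118A had the lowest depth, with 113 to 421 counts a library.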
